A study of Nicotiana tabacum with 18 samples.

Results

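The most abundant transcripts of the middle leaf of tobacco were described here as the 200 genes with the highest mean FPKM over all 18 libraries, out of 69500 genes measured. FPKM is a gene's sequenced fragments set against the length of its transcript and the mapped fragments of the library, so levels can be compared between genes on this scale. The leaves were taken 70 days after transplanting and fell into 6 groups of 3 libraries. The G70 cross was the line G70 as mother (HP1), GDH11 as father (HP2) and their hybrid G70×GDH11 (H). The K326 cross was the cultivar K326 as mother (LP1), GDH11 as father once more (LP2) and the hybrid K326×GDH11 (L). Leaves of 3 plants per plot were mixed for a sample, so that each library is an average over plants and over the cells of the leaf, and lower RNA per cell cannot be told apart from fewer cells of a type. The labels do not say which libraries came from which plot, and the p-values below measure only the spread between these libraries.

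In a green leaf, a few transcripts make up a large part of the messenger RNA. In plants in general these encode above all the small subunit of Rubisco, which fixes carbon dioxide, the chlorophyll-binding proteins of the light-harvesting antennae, and other parts of photosynthesis and photorespiration. Many of these genes belong to families, and tobacco carries copies from both of its ancestral species, so that reads of near-identical copies can be split between them. The deposited tables gave no gene names, and none of the 200 identifiers was matched in the annotation used here (0 of 200). The members are therefore named by identifier alone, no role is given to any of them, and the labelled leaf tissue could not be checked against its defining genes. None of the 26 K+ genes and of the 9 qRT-PCR genes examined in the study was a member. The highest K+ gene was at rank 995 (Nitab4.5_0004815g0040, mean 116 FPKM) and the highest qRT-PCR gene at rank 291 (Nitab4.5_0008360g0020, mean 282 FPKM).

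The sums of FPKM lay between 756861.83 and 818036.71 per library, and the number of genes at 1 FPKM or more between 31474 and 33091 in 17 libraries and at 27527 in LP2 replicate 2. That library and LP1 replicate 2 stood apart from the others among the members too. LP2 replicate 2 held the highest value of 49 members and LP1 replicate 2 the lowest value of 71 members. The counts of called members and the median differences in the K326 cross are given with and without them. The files give no number of reads per gene, so the depth behind a single FPKM is unknown here and no counting interval was computed.

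The 200 members held between 18.9% and 26.8% of the summed FPKM of a library. Their share was 23.5, 22.4 and 22.5% in the HP1 libraries, 19.8, 26.3 and 24.3% in H, and 22.05, 23.2 and 22.9% in HP2. In the K326 cross it was 20.1, 18.9 and 26.8% in LP1, 22.3, 19.7 and 23.7% in L, and 20.9, 26.8 and 24.2% in LP2. The 6 groups overlapped, and the lowest and the highest library both belonged to LP1. The group means were 22.8% ± 0.641 (SD, n = 3) in HP1, 23.5% ± 3.36 in H, 22.7% ± 0.606 in HP2, 21.9% ± 4.29 in LP1, 21.9% ± 2.04 in L and 23.96% ± 2.92 in LP2. Each hybrid mean thus differed from the mean of either parent by less than the larger SD of the pair. No test is given, because the members were chosen on these levels. The 10 highest members alone held between 4.42% (LP1 replicate 2) and 9.82% (H replicate 3).

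**Figure D1:**
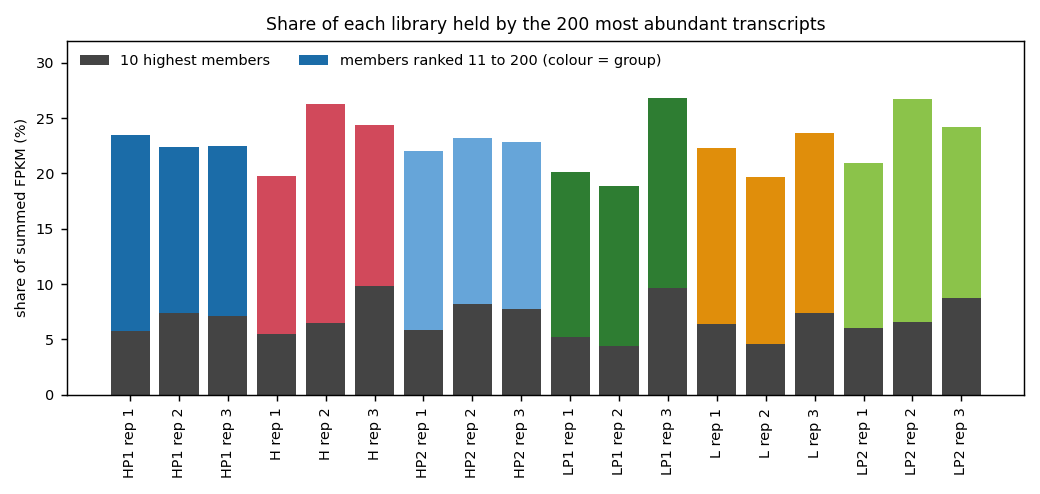
Share of the summed FPKM of each of the 18 libraries held by the 10 highest members (dark bars) and by the members ranked 11 to 200 (coloured by group), in percent. The totals run from 18.9% to 26.8%, and both ends lie in LP1.

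The share was about as large in libraries that had no part in the choice of genes. The 200 highest genes of the G70 cross and the 200 highest of the K326 cross shared 181 genes, 90.5% of each list. The list chosen in the G70 cross held a mean of 23.02% of the summed FPKM there and 22.4% in the K326 cross, with 18.7 to 26.7% over its 9 libraries. The list chosen in the K326 cross held 22.7% there and 22.8% in the G70 cross, with 19.7 to 25.6% over 9 libraries. Choosing by the median in place of the mean kept 188 of the 200 members, and leaving out any 1 library kept between 195 and 199.

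The mean levels of the members ran from 361 to 10818 FPKM with a median of 535 FPKM, and 34 of them lay above 1000 FPKM. Just inside the limit were Nitab4.5_0003986g0030 (362 FPKM), Nitab4.5_0001615g0140 (362 FPKM) and Nitab4.5_0000019g0250 (361 FPKM). Just outside it were Nitab4.5_0000531g0040 (359 FPKM), Nitab4.5_0006824g0040 (359 FPKM) and Nitab4.5_0002709g0020 (356 FPKM). The limit therefore fell within a continuous series of levels.

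The first 2 genes were almost level in their means, 10818 FPKM for Nitab4.5_0003771g0010 and 10782 FPKM for Nitab4.5_0000037g0340. Nitab4.5_0003771g0010 measured 9321, 13705 and 14185 FPKM in HP1, 10439, 4710.3 and 15192 in H and 5803, 10558 and 5439.8 in HP2. The K326 cross gave 4517, 7477 and 33995 FPKM in LP1, 4769, 5306 and 14059.7 in L and 5561, 4323 and 25368 in LP2. It was the highest gene of 6 libraries, and replicate 3 stood far above the other replicates in LP1, L and LP2. Nitab4.5_0000037g0340 measured 2691, 14682 and 9789.7 FPKM in HP1, 5290.1, 3534 and 28958 in H and 4216, 22912 and 23093 in HP2. Its K326 values were 10456, 8940.2 and 5020.1 FPKM in LP1, 16744, 3379 and 4894 in L and 18484, 5136 and 5863 in LP2. It led 8 libraries and spanned 2691 to 28958 FPKM, with both H and HP2 holding libraries near either end.

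Nitab4.5_0002207g0050, at rank 3 with a mean of 7683 FPKM, was listed at 0 in LP1 replicate 2 and in LP2 replicate 2. In the other 16 libraries it lay between 5318 and 16289 FPKM, with 5977, 5939.8 and 6130.1 FPKM in HP1, 7735, 16289 and 5318 in H and 12977, 8025 and 9339 in HP2. The K326 values were 8858, 0 and 6664 FPKM in LP1, 9949, 8040.3 and 11019.8 in L and 7089, 0 and 8938 in LP2. It was the only member with a 0 in any library, and the only gene with a 0 among the 1238 genes with a mean of at least 100 FPKM. In all, 28 genes were listed at 0 in these 2 libraries and in no other. An exact 0 beside such levels in the same groups can be a failed estimate, and whether these transcripts were absent was not tested. The fitted log2 difference of 4.62 between L and LP1 for this gene (SE 3.999, limma adjusted p = 0.734) rests on these zeros, and without both libraries it was 0.32 (SE 0.25, adjusted p = 0.523).

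The next gene, Nitab4.5_0005400g0020, had a mean of 6093 FPKM and measured 3651, 5405 and 8446 FPKM in HP1, 5852, 2740.0 and 7886 in H and 3663, 6654 and 3521 in HP2. The leaves of the K326 cross held 3312, 4369 and 15680.1 FPKM in LP1, 3085, 3717 and 8612 in L and 4088, 5345 and 13642 in LP2. Its high libraries were those of Nitab4.5_0003771g0010, again replicate 3 of LP1 and LP2. Nitab4.5_0000037g0350 (mean 3551 FPKM) ranged from 896 in LP2 replicate 1 to 10003 in LP2 replicate 2, so that both its extremes were leaves of 1 group. Nitab4.5_0009855g0010 (mean 3223 FPKM) reached 13234 FPKM in LP2 replicate 2, where it was the highest gene of the library, and lay between 1353 and 5052 FPKM in the others. Nitab4.5_0000309g0200 (mean 3177 FPKM) ran from 619 FPKM in LP2 replicate 2 to 10929.7 FPKM in H replicate 3. Nitab4.5_0001382g0020 (mean 3041 FPKM) ran from 1011 FPKM in LP1 replicate 2 to 6774 FPKM in H replicate 2. Nitab4.5_0000313g0040 (mean 2972 FPKM) was the steadiest of the 10, with 1585 to 3906 FPKM in 17 libraries and 8002 FPKM in LP2 replicate 2. Nitab4.5_0008097g0030 (mean 2953 FPKM) measured 5237, 1015 and 1521 FPKM in HP1, 4058, 5615 and 925 in H and 6462, 1890.1 and 1472 in HP2. Its K326 values were 1545, 468 and 2376 FPKM in LP1, 2293, 4336 and 5604 in L and 2311, 2341 and 3689 in LP2, and the lowest library of each cross lay under 1000 FPKM. For none of these 10 genes did the libraries of either hybrid lie wholly above or below those of both its parents.

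**Figure D2:**
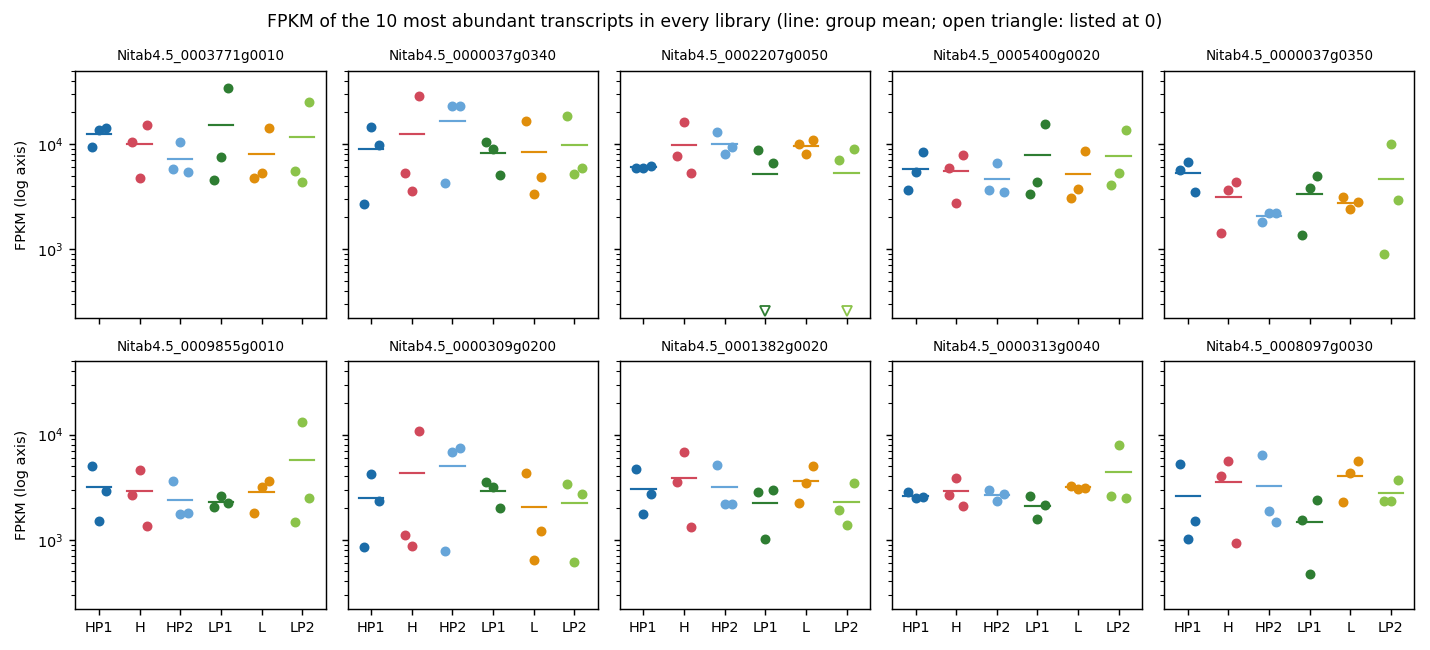
FPKM of the 10 members with the highest mean in each library (points, log axis) by group, with the group mean as a line. Open triangles mark the 2 libraries in which Nitab4.5_0002207g0050 was listed at 0, and within most groups the points of a gene spread as far as the points of different groups.

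Ranked by group mean, the same few genes led every group, while the order below them moved. Nitab4.5_0003771g0010 held rank 1, 2 and 3 in HP1, H and HP2 and rank 1, 3 and 1 in LP1, L and LP2. Nitab4.5_0000037g0340 held rank 1 or 2 in all 6 groups. Nitab4.5_0000309g0200 moved more, from rank 4 in HP2 to rank 17 in LP2, and Nitab4.5_0008097g0030 from rank 5 in L to rank 23 in LP1. Of the 200 members, 98 were among the 200 highest genes of all 6 groups, 52 of 5 groups and 50 of 4 groups or fewer. LP1 stood furthest from the common list, with 152 members among its own 200 highest genes, and HP2 nearest, with 184. HP1 held 179, H 177, L 167 and LP2 171.

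Between groups, the lists of the 200 highest genes overlapped most for HP1 and HP2 (171 genes, 85.5% of each) and least for LP1 and L (126 genes, 63.0% of each). Without LP1 replicate 2 and LP2 replicate 2, LP1 held 156 members and shared 132 genes (66% of each) with L, still the fewest, and 160 (80% of each) with LP2. The hybrid H shared 166 genes with HP1 (83.0% of each) and 168 with HP2 (84.0% of each). In single libraries the ranks were looser still. Only 48 members were among the 200 highest genes of all 18 libraries, the median member was in 13.5 of them, and 32 members were in 9 or fewer. In all, 493 genes were among the 200 highest of at least 1 library, and 314 genes among the 200 highest of at least 1 group.

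The stability of a member was described by its coefficient of variation (CV, the SD as a percentage of the mean) over the 18 libraries. It ran from 14.7% to 114% with a median of 44.8%. The highest value was at least 4 times the lowest in 138 members and less than 2 times the lowest in 9. The steadiest member was Nitab4.5_0000647g0070, with a CV of 14.7% and with 287, 343 and 403 FPKM in HP1, 402, 270.1 and 414 in H and 354, 373 and 371 in HP2. Its levels in the K326 cross were 377, 405 and 337 FPKM in LP1, 352, 438 and 427 in L and 379.9, 518 and 402 in LP2. Nitab4.5_0005236g0040 (CV 14.97%, 287 to 524 FPKM), Nitab4.5_0000023g0110 (CV 15.02%, 250 to 493 FPKM), Nitab4.5_0000283g0060 (CV 15.5%, 380.4 to 729 FPKM) and Nitab4.5_0004241g0020 (CV 15.8%, 486 to 980.0 FPKM) followed. Among these 5, 1 extreme or both came from H replicate 2 or LP2 replicate 2 in each gene.

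The most variable member was Nitab4.5_0003337g0010, with a CV of 114% and with 1497, 298 and 414 FPKM in HP1, 390.1, 2477 and 123 in H and 785, 218 and 337 in HP2. Its K326 values were 272, 211 and 204 FPKM in LP1, 233, 224 and 411 in L and 45.4, 838 and 379.9 in LP2. The high values lay in single libraries of H, HP1, HP2 and LP2 and not in a whole group. Nitab4.5_0000037g0320 (CV 100.4%) is given with the K326 cross below. Nitab4.5_0004129g0010 (CV 97.4%) ran from 328 FPKM in H replicate 3 to 6115 FPKM in LP2 replicate 2. Nitab4.5_0002230g0020 (CV 96.0%) measured 66.8, 661 and 469.6 FPKM in HP1, 69.3, 106 and 1237 in H and 35.6, 677 and 1099 in HP2. In the K326 cross it measured 785, 1203 and 507 FPKM in LP1, 564, 41.2 and 95.2 in L and 272, 24.1 and 60.1 in LP2, so that H and HP2 each held a library near the lowest and another near the highest of all 18. Nitab4.5_0000360g0100 (CV 95.1%) ran from 91.7 FPKM in LP2 replicate 2 to 2699.9 FPKM in LP1 replicate 3.

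On the log2(FPKM + 1) scale, the median member had 28.7% of its variance between the 6 groups, against 28.9% over the 34960 genes that reached 1 FPKM in 3 or more of the 18 libraries. The next 200 genes by mean FPKM stood at 29.2%. The median SD within groups was 0.64 log2 units for the members, 0.52 for the next 200 genes and 0.39 for all genes. Choice by a mean of linear FPKM favours genes with single high libraries, and for the 200 genes highest by mean log2 level the median SD was 0.61. The members with the largest part between groups were Nitab4.5_0001231g0010 (85.1%), Nitab4.5_0001696g0140 (80.0%), Nitab4.5_0000037g0320 (77.8%) and Nitab4.5_0013186g0010 (75.2%), which were picked out after their values were seen.

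Over the members, libraries of 1 group were in the median about as alike as libraries of different groups. Pearson's r of log2(FPKM + 1) across the 200 members, a description across genes that are not independent replicates, had a median of 0.577 over the 18 pairs within groups (0.177 to 0.94). It had a median of 0.603 over the 135 pairs between groups (-0.099 to 0.917). For 13 of 18 libraries the most similar library came from another group. The exceptions were replicates 2 and 3 of HP1 with each other (r = 0.94), replicates 2 and 3 of L with each other (r = 0.913) and HP2 replicate 3 with HP2 replicate 2 (r = 0.911). The 9 pairs of GDH11 leaves from different crosses had a median r of 0.603. LP1 replicate 2 and LP2 replicate 2 were least like any other library, with r of at most 0.693 and 0.562. These r include Nitab4.5_0002207g0050, listed at 0 in these 2 libraries alone, and r without this gene was not computed.

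**Figure D3:**
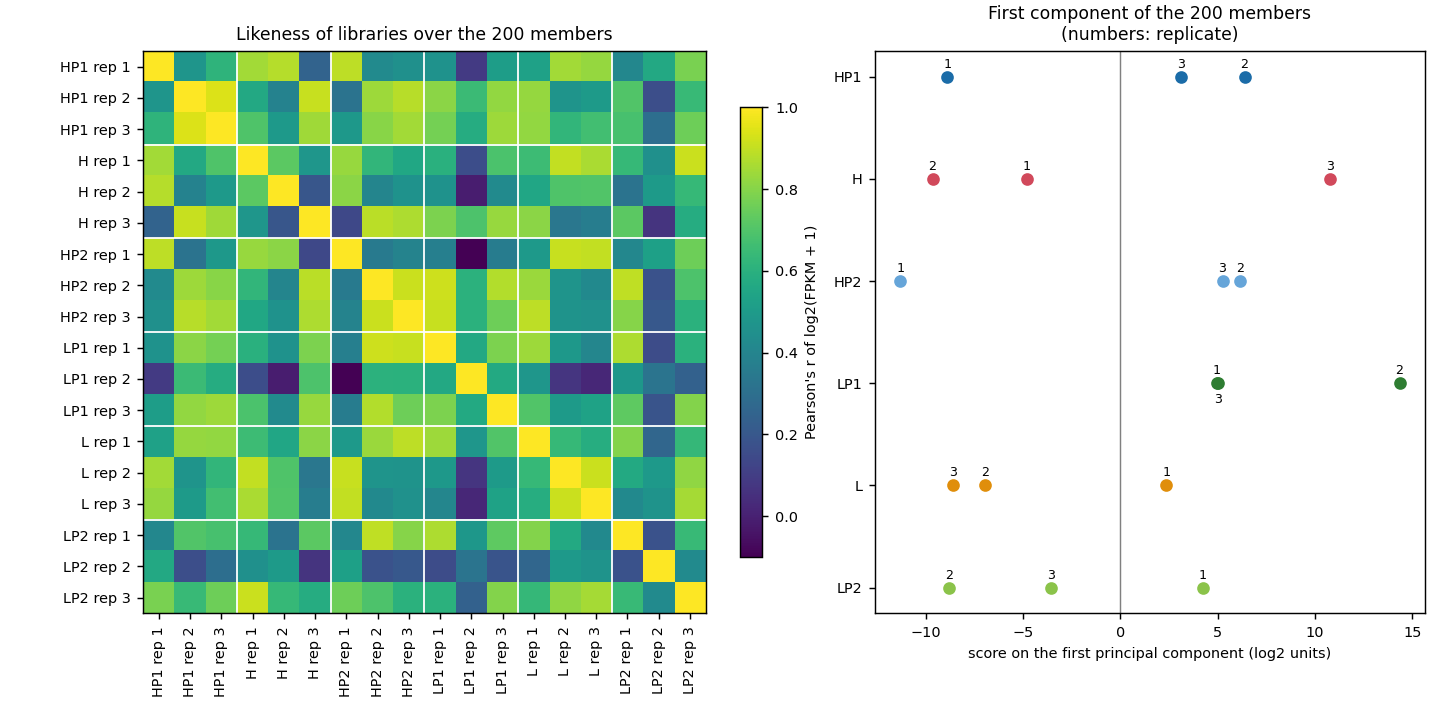
Left, Pearson's r of log2(FPKM + 1) over the 200 members for all pairs of the 18 libraries, with white lines between groups. Right, the score of each library on the first principal component of the members, with the replicate number beside each point, where libraries on both sides of 0 occur in every group but LP1.

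A single direction held 49.4% of the variance of the members over the 18 libraries (first principal component), and a second held 20.8%. The zeros of Nitab4.5_0002207g0050 in LP1 replicate 2 and LP2 replicate 2 enter these values, which were not computed without this gene. The scores on the first component were -8.89, 6.38 and 3.10 in HP1, -4.82, -9.65 and 10.8 in H, and -11.3, 6.16 and 5.25 in HP2. In the K326 cross they were 4.95, 14.3 and 5.04 in LP1, 2.35, -6.95 and -8.58 in L, and 4.22, -8.82 and -3.56 in LP2. In every group but LP1 the 3 libraries fell on both sides of 0, with 8 libraries below 0 and 10 above it in all. Of the members, 79 fell with the score (r below -0.7), 28 rose with it (r above 0.7) and 93 lay between. The first component of the 34760 other genes tested held 38.1% of their variance and ordered the libraries much the same way (absolute r 0.918 over 18 libraries), so the direction was not particular to the members. Which property of the leaves or libraries it follows was not tested.

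Several of the 10 highest genes moved with another member over the 18 libraries, which is a description with no test because the libraries share their first component. Nitab4.5_0000313g0040 followed Nitab4.5_0002475g0030 (rank 11, r = 0.975) and Nitab4.5_0008097g0030 followed Nitab4.5_0006960g0010 (rank 114, r = 0.976). Nitab4.5_0003771g0010 and Nitab4.5_0005400g0020 both had Nitab4.5_0004861g0030 as their nearest member (r = 0.962 and 0.94). Nitab4.5_0000037g0340 and Nitab4.5_0000309g0200 were each other's nearest member (r = 0.932). Nitab4.5_0002207g0050 and Nitab4.5_0001382g0020 both lay nearest to Nitab4.5_0012264g0020 (r = 0.787 and 0.9), Nitab4.5_0009855g0010 to Nitab4.5_0004129g0010 (r = 0.905) and Nitab4.5_0000037g0350 to Nitab4.5_0004136g0010 (r = 0.763). The r of Nitab4.5_0002207g0050 includes its zeros.

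The first part of an identifier gives the scaffold of the tobacco assembly, and 17 members shared a scaffold with another member, on 7 of the 190 scaffolds represented. Scaffold 0000037 carried 5 members among its 37 genes, at ranks 2, 5, 22, 51 and 53, and these 5 together held between 0.818% and 4.85% of the summed FPKM of a library. These neighbours did not share 1 pattern. Nitab4.5_0000037g0340 and Nitab4.5_0000037g0360 rose and fell together (r = 0.861 over 18 libraries), whereas the other 9 pairs had r between -0.204 and 0.464. On scaffold 0000592 the members Nitab4.5_0000592g0290 and Nitab4.5_0000592g0320 had r = 0.977, and on scaffold 0000527 the members Nitab4.5_0000527g0160 and Nitab4.5_0000527g0230 had r = -0.757. Copies of a family can lie side by side, and how RSEM divided reads between such copies cannot be read from FPKM.

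Stability between hybrids and parents was tested with limma on log2(FPKM + 1), fitted to all genes of a cross that reached 1 FPKM in 3 or more of its 9 libraries. A gene was called when its Benjamini-Hochberg adjusted p over all genes tested was 0.05 or less and the size of its log2 fold change was 1 or more. All 200 members passed the filter on low values in both crosses. The comparisons of a hybrid with its 2 parents and with the mid-parent (the mean of both on the log2 scale) share libraries and are not independent.

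In the G70 cross, no member was called in any comparison. For H against HP1 the count was 0 of 200 against 0.488% of all genes tested, for H against HP2 0 against 0.421%, for H against the mid-parent 0 against 0.482%, and for HP1 against HP2 0 against 0.462%. With an unadjusted p in place of the adjusted one, the counts were 3 (1.5% of all genes), 3 (1.39%), 2 (1.18%) and 5 (1.36%) in the same order, and the lowest adjusted p values were 0.492, 0.326, 0.212 and 0.203. The median log2 difference of the members from the mid-parent was 0.04, and 184 of 200 lay within 0.5 of 0, against 90.8% of all genes tested. This does not show equal levels. The 95% interval of the difference lay within 1 log2 unit on either side of 0 for 80 members (40.0%), against 72.5% of all genes, and the median SE was 0.41 for the members and 0.24 for all genes.

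Replicate 1 of HP1, replicate 3 of H and replicate 1 of HP2 were the libraries of the G70 cross least like their group, and the study's listing of RNA-seq beside qRT-PCR values also lacks them. Without these 3 libraries the same test, with the filter on low values at 2 or more libraries, gave other counts. For H against HP1, 25 members were called against 7.05% of all genes, of which 15 were higher in H (2.72% of all genes) and 10 lower (4.32%). For H against HP2, 19 members were called (6.59%), 7 of them higher (2.72%) and 12 lower (3.87%). For H against the mid-parent, 37 were called (8.54%), 20 of them higher (3.77%) and 17 lower (4.76%). For HP1 against HP2 it was 0 (0.463%). The members' shares of calls were thus above the background share in each comparison of H. Against both parents 13 members were called (4.18% of all genes), 5 higher (1.58%) and 8 lower in H (2.56%). A larger share of members than of all genes also had a log2 difference of at least 1 in size. These were 67, 60 and 58 of the 200 members against HP1, HP2 and the mid-parent (13.2%, 12.6% and 11.9% of all genes). Of these members a smaller part was called than over all genes (2406 of 4517, 2251 of 4291 and 2915 of 4060). Whether the excess of calls goes beyond the members' larger differences was not tested. Leaving out the library least like its group narrows the spread that the test uses. The 3 libraries left out had scores of -8.89 (HP1), 10.8 (H) and -11.3 (HP2) on the first component. Those kept scored -4.82 and -9.65 in H and from 3.10 to 6.38 in the parents. The reduced set thus separates H from its parents along this direction as well as by genotype, and which of these the calls follow was not tested. In all 9 libraries, 36 of these 37 members kept their sign against the mid-parent. These 9 include the libraries that gave the calls, so the agreement of sign is no separate support. The log2 differences of the 37 members in all 9 lay between -0.71 and 0.37, with a lowest limma adjusted p of 0.9999.

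Examples with the largest differences, chosen after their values were seen, show the values of the 3 libraries. Nitab4.5_0000722g0100 measured 1974, 242 and 387 FPKM in HP1, 1079, 2243 and 187 in H and 2105, 471 and 379 in HP2 in the G70 cross. The low library of H and the high libraries of HP1 and HP2 are the 3 left out, and without them the log2 difference from the mid-parent was 2.11 (SE 0.37, limma adjusted p = 0.0196, 2 libraries per group). Nitab4.5_0023724g0010 measured 1249.8, 159.8 and 279.8 FPKM in HP1, 734, 1012 and 111 in H and 1417, 281 and 221 in HP2 and had a difference of 1.90 without the 3 libraries (SE 0.30, adjusted p = 0.0160) against 0.08 with them (SE 0.93). Nitab4.5_0002230g0020, whose values are given above, had -2.999 without them (SE 0.32, adjusted p = 0.00610) against -0.45 with them (SE 1.33). Nitab4.5_0000037g0360 measured 123, 1181 and 644 FPKM in HP1, 317, 277 and 1895 in H and 144, 1933 and 1639 in HP2 and had -2.07 (SE 0.31, adjusted p = 0.0132) against -0.10 (SE 1.06). Of the 10 highest genes, Nitab4.5_0008097g0030 was called higher (1.73, SE 0.31, adjusted p = 0.0208), Nitab4.5_0000309g0200 lower (-2.27, SE 0.33, adjusted p = 0.0129) and Nitab4.5_0000037g0340 lower (-1.94, SE 0.36, adjusted p = 0.0217) in this reduced set. In each of these genes H replicate 3 was the highest or the lowest of the H libraries.

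**Figure D4:**
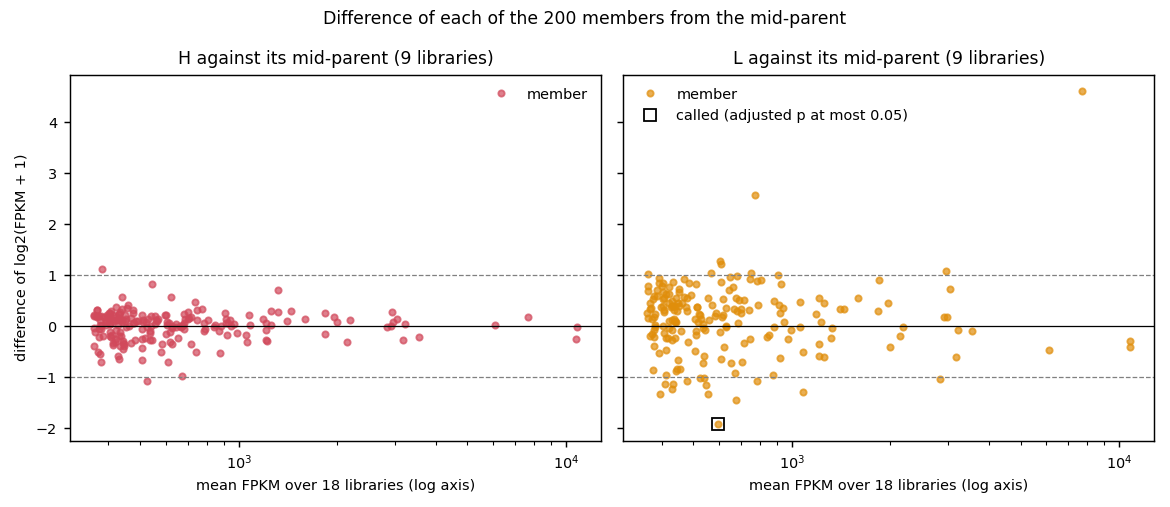
Difference of log2(FPKM + 1) between each hybrid and its mid-parent (vertical axis) against the mean FPKM over 18 libraries (log axis) for the 200 members, from all 9 libraries of a cross. Dashed lines mark a log2 difference of 1, the square marks Nitab4.5_0003074g0030, the only member called in these comparisons, and the highest point of L is Nitab4.5_0002207g0050 with its zeros in 1 library of each parent.

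In the K326 cross, Nitab4.5_0014528g0010 was lower in L than in the female parent and Nitab4.5_0003074g0030 was lower in L than the mid-parent, and no other member was called. For L against LP1 1 of 200 members was called (0.17% of all genes), for L against LP2 0 (0.266%), for L against the mid-parent 1 (0.206%) and for LP1 against LP2 1 (0.2%). Nitab4.5_0014528g0010 measured 1264, 1084 and 991 FPKM in LP1, 294, 342 and 382 in L and 355, 371 and 374 in LP2. Its L and LP2 libraries overlapped and both lay below every LP1 library, with a log2 difference of -1.71 between L and LP1 (SE 0.22, adjusted p = 0.0234) and of 1.59 between LP1 and LP2 (SE 0.22, adjusted p = 0.0290). The G70 values were 893, 987 and 1432 FPKM in HP1, 337, 761 and 214 in H and 355, 305 and 1305 in HP2, where HP2 replicate 3 lay within the range of HP1. The first call was lost without replicate 1, 2 or 3 of LP1 (adjusted p = 0.133, 0.0783 and 0.0864), replicate 2 or 3 of L (0.150 and 0.109) or replicate 3 of LP2 (0.0581). The second was lost without any single library but LP2 replicate 2, with adjusted p between 0.0419 and 0.163 over the 9 limma fits. A check on these same data paired LP1 with LP2 by replicate number, a pairing that the labels do not give. In a limma fit blocked on these numbers the adjusted p of the second call was 0.0629, so that 0 members were called between these parents (0.185% of all genes). In that blocked fit the difference between L and LP1 was not called either (adjusted p = 0.0525), although the numbers did not pair these 2 groups. Without L replicate 1, 3 members were called for L against LP1, all lower in L, against 0.989% of all genes in either direction.

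Nitab4.5_0003074g0030 measured 1069, 1134 and 798 FPKM in LP1, 303, 255 and 136 in L and 838, 747 and 549 in LP2, so that all 3 L libraries lay below all 6 libraries of its parents. The log2 difference from the mid-parent was -1.92 (SE 0.30, limma adjusted p = 0.0479), and without any 1 library the adjusted p lay between 0.0539 and 0.236. In the G70 cross the gene measured 463, 499 and 438 FPKM in HP1, 506, 368 and 814 in H and 142, 1062 and 609 in HP2, with the groups overlapping. Nitab4.5_0000037g0320 measured 120.0, 279.7 and 237 FPKM in LP1, 1085, 1363 and 1487 in L and 115, 319.9 and 361 in LP2, and here all 3 L libraries lay above all 6 parental ones. Its log2 difference was 2.70 against LP1 (SE 0.47, adjusted p = 0.0853), 2.45 against LP2 (SE 0.47, adjusted p = 0.127) and 2.57 against the mid-parent (SE 0.41, adjusted p = 0.0561), none of them called without a block. The check on these same data also paired L with LP2 by replicate number. With that block, which the labels do not give, the difference from LP2 was called (SE 0.30, limma adjusted p = 0.0328), the only member called in that comparison (0.176% of all genes). The same fit called it against LP1 (adjusted p = 0.0253) and against the mid-parent (adjusted p = 0.0165), where the numbers did not pair L with LP1. In each of these comparisons it was 1 of 2 members called, both times with Nitab4.5_0003074g0030, against 0.185% and 0.125% of all genes. In the G70 cross this gene measured 715, 1921 and 2832 FPKM in HP1, 789, 234 and 1544 in H and 176, 144 and 198 in HP2, with every HP1 library above every HP2 library (log2 difference 3.19). Every H library also lay above every HP2 library, with H replicates 1 and 3 within the range of HP1 and H replicate 2 below it.

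More of the members than of all genes had large fitted differences between LP1 and the other K326 groups, and few or none of these passed the test. Of the 200 members, 62 (31.0%) had a log2 difference of at least 1 in size between L and LP1, against 9.10% of all genes tested, and 44 (22%) between LP1 and LP2, against 9.5%. Without LP1 replicate 2 and LP2 replicate 2 these numbers were 42 (21%), against 8.97% of all genes, and 9 (4.5%), against 4.88%. For LP1 against LP2 the share was then no higher than over all genes. The median SE was also larger for the members than for all genes, 0.43 against 0.32 for L against LP1. With an unadjusted p in place of the adjusted one, the counts were 45 members for L against LP1 (6.59% of all genes), 6 for L against LP2 (2.65%), 14 for L against the mid-parent (2.73%) and 27 for LP1 against LP2 (6.07%). Without these 2 libraries they were 25 (5.94%), 6 (2.77%), 10 (3.56%) and 1 (2.3%). The median log2 difference of the members was 0.37 for L against LP1 and -0.31 for LP1 against LP2, where the medians of all genes were 0.03 and 0.20. Without the same libraries the members' medians were 0.30 and -0.08, and those of all genes 0.08 and -0.03. The interval against the mid-parent lay within 1 log2 unit of 0 for 52 members (26%), against 58.2% of all genes. Without LP1 replicate 2 and LP2 replicate 2 the counts called were 1, 0, 0 and 0, against 0.248%, 0.277%, 0.328% and 0.221% of all genes. Without L replicate 1 as well, a choice made after seeing the data that leaves out the library least like its group, they were 17, 0, 7 and 0, against 5.84%, 0.447%, 3.54% and 0.23% of all genes.

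Complete separation of a hybrid from its parents was counted next, with no test. All 3 H libraries lay above all 6 parental libraries in 1 member (Nitab4.5_0003779g0100; 0.841% of all genes tested) and below them in 9 members (1.51% of all genes). All 3 L libraries lay above all 6 parental libraries in 12 members (4.6% of all genes) and below them in 3 (1.07% of all genes). The member shares were 0.5%, 4.5%, 6.0% and 1.5%, of which that for H below its parents stood furthest from its background. Nitab4.5_0003779g0100 measured 189, 379 and 389 FPKM in HP1, 516, 447 and 1109 in H and 160.5, 357 and 380.4 in HP2, a log2 difference of 1.12 from the mid-parent (SE 0.42, limma adjusted p = 0.890).

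Nitab4.5_0001231g0010 was the only member below all parental libraries in both hybrids. It measured 855, 480.0 and 623 FPKM in HP1, 276, 430.2 and 279 in H and 821, 705 and 649.9 in HP2 in the G70 cross. The K326 cross gave 444, 542 and 459 FPKM in LP1, 221, 322 and 299 in L and 668, 643 and 694 in LP2. The log2 difference from the mid-parent was -1.07 in H (SE 0.25, limma adjusted p = 0.212) and -1.03 in L (SE 0.20, adjusted p = 0.160), so that neither was called. The difference between the 2 hybrid effects was -0.05 (SE 0.31, adjusted p = 0.989). Above all parental libraries of L lay Nitab4.5_0001696g0140, with 229, 136 and 286 FPKM in LP1, 690.2, 513 and 573 in L and 467, 399.6 and 351 in LP2, and Nitab4.5_0013186g0010, with 588, 423 and 546 FPKM in LP1, 1119.5, 1258 and 1249 in L and 870.2, 916 and 711 in LP2. Their log2 differences from the mid-parent were 1.02 (SE 0.27, adjusted p = 0.324) and 0.89 (SE 0.21, adjusted p = 0.254).

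**Figure D5:**
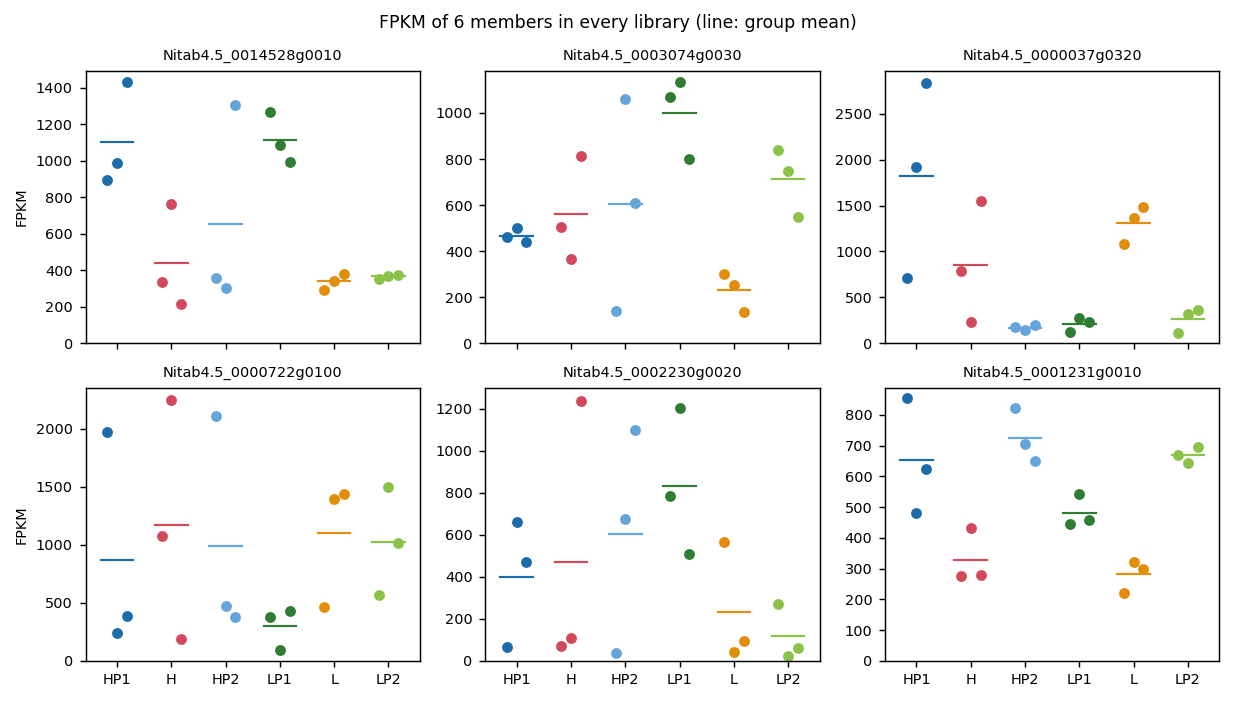
FPKM of 6 members in every library (points) with the group mean (line), each panel starting at 0. Nitab4.5_0014528g0010, Nitab4.5_0003074g0030 and Nitab4.5_0000037g0320 separate groups of the K326 cross, Nitab4.5_0001231g0010 lies below all parental libraries in both hybrids, and Nitab4.5_0000722g0100 and Nitab4.5_0002230g0020 split libraries of the same group.

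The same male parent was sampled once for each cross. Between HP2 and LP2, 0 of 200 members were called (0.00286% of all genes), 0 with an unadjusted p in place of the adjusted one (1.29%), with a lowest adjusted p of 0.612 in the limma fit of all 18 libraries. The 2 hybrids' differences from their mid-parents were compared in the same fit, and 0 members were called (0.083% of all genes), against 6 with an unadjusted p (2.62%). The lowest adjusted p was 0.735, for Nitab4.5_0003074g0030 (difference of the hybrid effects 2.14 on the log2 scale, SE 0.67). A difference between the effects of the hybrids was thus not shown for any member.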

How the data were processed

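Total RNA of middle leaves was sequenced in 18 libraries, 3 per group. The authors trimmed the reads, mapped them to the genome of the cultivar K326 and estimated abundance with RSEM. The paper names TopHat2 as the aligner, the submitters' processing notes name HISAT2 and StringTie, and versions are not given in the sources used here. The authors deposited FPKM for 69500 genes under Nitab4.5 identifiers, rounded to 2 decimals, in a table described as raw counts. The paper shows its expression values as FPKM, and the sums per library were 756861.83 to 818036.71. The values were therefore taken as FPKM and not as raw counts (the sums alone would also allow TPM of a part of the genes). No count model was fitted, and the depth per gene is unknown. The authors' tables of group values were not used.

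The members and gene lists were chosen with earlier results of these data known. Members are the 200 genes with the highest mean FPKM over 18 libraries. Shares, ranks and CV were computed from FPKM, and correlations and components from log2(FPKM + 1). Tests used limma 3.58.1 in R 4.3.3 on log2(FPKM + 1), which understates fold changes of low genes, with an intensity trend and Benjamini-Hochberg adjustment over all genes tested. Genes that reached 1 FPKM in 3 or more libraries entered a fit with all libraries. Where libraries were left out and a group kept 2, genes that reached 1 FPKM in 2 or more libraries entered. The comparisons within a cross shared a fit of its 9 libraries, and all 18 were fitted together for HP2 against LP2 and for the difference between hybrids. The scripts were tested on simulated data. Tables and figures were made with Python 3.11.15, pandas 2.3.3 and matplotlib 3.10.9.

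Genes named by rule were the 10 highest members, up to 5 called rises and 5 called falls per comparison, the 5 members with the lowest and the 5 with the highest CV, 3 genes on either side of rank 200, and any member among the K+ and qRT-PCR genes of the study. Others are stated as chosen after their values were seen. Pairing by replicate number was checked by correlating deviations from group means over genes. The labels name no block, so such pairing is read from the same data as the tests. All 3 pairs exceeded 0.1 for HP1 and HP2 (0.579, 0.271 and 0.482), L and LP2 (0.537, 0.248 and 0.228) and LP1 and LP2 (0.251, 0.213 and 0.289), and not for the other groups compared. Alternatives tried were another pseudocount, other filters, quantile and median-of-ratios scaling, no trend, the replicate block, other thresholds, other choices of members, and leaving out libraries.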

Additional observations from a re-analysis of the deposited data

How the results depend on the processing

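None of the 3 differences called for named members in all 9 libraries of the K326 cross changed its sign under 22 alternatives each. Members called only in reduced or blocked fits are not covered by this. The shares held by the members moved by less than 1 SD under every other choice of members. Leaving out 1 of the 3 libraries of a group cannot move its mean share by 1 SD, so this alternative cannot decide how stable the shares are. The counts of called members moved as follows. In the G70 cross the counts for H against HP1, H against HP2, H against the mid-parent and HP1 against HP2 were all 0. At an unadjusted p of at most 0.05 with a log2 fold change of at least 1 they became 3, 3, 2 and 5 (1.5%, 1.39%, 1.18% and 1.36% of all genes). In the 15 libraries they became 25, 19, 37 and 0 (7.05%, 6.59%, 8.54% and 0.463% of all genes). Without any 1 library they remained at 0. The 0 for the difference of the hybrid effects became 6 at unadjusted p (2.62% of all genes). In the K326 cross the counts for L against LP1, L against LP2, L against the mid-parent and LP1 against LP2 were 1, 0, 1 and 1. They became 0, 0, 0 and 0 without a filter on low values, with at least 1 FPKM in every library, with median-of-ratios scaling and at a log2 fold change of at least 2. They became 45, 6, 14 and 27 at unadjusted p (6.59%, 2.65%, 2.73% and 6.07% of all genes). Quantile normalization gave 2 for L against LP1, where 112 of 33493 genes were called. A pseudocount of 0.1 gave 0 for L against the mid-parent, where 57 of 33493 genes were called. With the replicate number as a block, the counts were 2, 1, 2 and 0 (0.185%, 0.176%, 0.125% and 0.185% of all genes), and the members called were Nitab4.5_0003074g0030 and Nitab4.5_0000037g0320, while Nitab4.5_0014528g0010 was lost for L against LP1 and LP1 against LP2. The block changed no count of called members in the G70 cross or for the difference of the hybrid effects. For HP2 against LP2 the blocks lie within the crosses, so the blocked fit does not estimate the same difference. Its count of 0 therefore cannot serve as a check. Without any 1 library the counts ran from 0 to 3 for L against LP1 (3 without L replicate 1, where 0.989% of all genes were called), from 0 to 1 for L against the mid-parent and from 0 to 1 for LP1 against LP2, and stayed at 0 for L against LP2. The member called against the mid-parent without LP2 replicate 1 was higher in L (Nitab4.5_0000037g0320), where the one called in all libraries was lower. In that comparison 47 of 34249 genes were called. Without LP1 replicate 2 and LP2 replicate 2 the counts of members were 1, 0, 0 and 0 (0.248%, 0.277%, 0.328% and 0.221% of all genes). Without L replicate 1 as well they were 17, 0, 7 and 0 (5.84%, 0.447%, 3.54% and 0.23%). At unadjusted p without the first 2 alone they were 25, 6, 10 and 1 (5.94%, 2.77%, 3.56% and 2.3%). All of these alternatives were chosen after seeing the data. The numbers of libraries or of genes tested also changed in several of these alternatives, and the cause of the shifts was not tested. Of the 200 members, 199 lay at 20 FPKM or more in every library. The depth per gene is unknown, so which part of the spread between libraries comes from counting was not tested.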
